A study of Mus musculus with 4 samples.

Results

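The antiviral interferon effector genes are genes whose products act directly against viruses, or tune that action, once a cell has received an interferon. A list of 35 such genes was looked up by name among the 56493 genes of the deposited count table, and each name matched 1 row. Interferons bind receptors on the cell surface, and the kinases JAK1 and TYK2 then phosphorylate STAT proteins, of which STAT2 works with IRF9. Their complex binds the interferon-stimulated response element (ISRE) in promoters, and the gamma-activated sequence (GAS) is a second motif that interferon signalling reads. The products sense or trap viral RNA, modify proteins with the ubiquitin-like ISG15, block virus entry and release, or degrade RNA, and most cell types, neurons and glia included, can make them.

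RNA sequencing was done on 4 libraries of cells sorted from the mouse retina by fluorescence-activated cell sorting and labelled as RGC, the retinal ganglion cells that send their axons to the brain. All mice were wild type by their labels, all received an AAV2 vector in the vitreous, and all had the optic nerve crushed a month later. The vector of 2 libraries, AAV2-CrAT, served to overexpress the mitochondrial enzyme carnitine acetyltransferase, and that of the other 2, AAV2-MCS, has a name that the labels leave unexplained. The titles of all 4 libraries also carry the term NCd8, which the labels do not explain either. The comparison asks how expression in these cells differs when the vector carries CrAT. The labels give no strain, age, promoter of the vector or number of animals per library, nor do they say whether replicates are separate animals. The p-values therefore set group differences only against the spread between these libraries, and that spread may be technical. Since both groups carry a vector and an injury, no value below compares a treated with an untreated retina.

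Depth was 24494253 to 27097438 counts per library, and a count of 3 equalled 0.111 to 0.123 CPM (counts scaled to a common library size). Rod markers far exceeded those of ganglion cells. Summed over fixed lists, 14 ganglion cell markers were at 140.6 to 411.7 CPM and 10 rod markers at 24630 to 46360 CPM. The ganglion cell transcription factor Pou4f2 was at 0 in 3 of 4 libraries, while Rbpms had 73 to 237 counts and Thy1 273 to 831. In both groups the sum of the ganglion cell markers was higher, and that of the rod markers lower, in replicate 2 than in replicate 1. Of the ganglion cell markers, Nefh went the other way in both groups and Rbpms in CrAT. In bulk samples fewer cells of a type and less RNA per cell cannot be told apart, and which cells the effector transcripts came from was not tested. Of the 35 genes 33 passed the filter on low counts, 32 of them above its level in all 4 libraries and Ifi44 in 3, and Sp100 and Epsti1 were left out of the test.

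Promoters of the list are shown first, because these letters are what interferon signalling is known to read. RefSeq promoter windows of the build GRCm38.p6, from 250 bases before to 50 bases after the start site, were at hand for 27 of the 35 genes, 32 windows in all. The ISRE core was searched as GAAA, then any 2 bases, then GAAA, on both strands, and a match on the other strand reads TTTC, any 2 bases, TTTC. It was found in 12 of the 32 windows (37.5%), against 1131 of 32851 windows of all genes (3.44%). These windows belonged to 11 genes, and 8 of them held more than 1 match. The GAS core, searched as TTCNNNGAA, where N is any base and both strands read alike, was found in windows of 6 genes, Adar, Bst2, Ifi35, Ifit2, Ifitm3 and Oas1a. That was 18.8% of the 32 windows, against 8.30% of all windows. The GAS matches of Bst2 and Ifitm3 overlapped an ISRE match by a few bases. A match describes these letters and shows no binding.

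The matches of the 11 genes are shown in stretches of 60 bases on the gene's own strand, 5′ to 3′, to compare how they are built. Capitals mark every base that lies in an ISRE core match, and of Trim30a, which had a match in each of 2 windows, the first is shown.
Isg15, chr4:156200856-156200915, minus strand: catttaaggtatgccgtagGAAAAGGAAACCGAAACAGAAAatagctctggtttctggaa
Oas1a, chr5:120907508-120907567, minus strand: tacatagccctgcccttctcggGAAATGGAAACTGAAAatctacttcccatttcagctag
Bst2, chr8:71537565-71537624, minus strand: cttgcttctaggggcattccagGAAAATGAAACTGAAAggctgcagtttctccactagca
Trim21, chr7:102565453-102565512, minus strand: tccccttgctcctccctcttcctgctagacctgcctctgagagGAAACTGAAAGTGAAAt
Ifitm3, chr7:141010715-141010774, minus strand: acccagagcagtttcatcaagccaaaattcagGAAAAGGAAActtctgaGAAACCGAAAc
Ifitm2, chr7:140955973-140956032, minus strand: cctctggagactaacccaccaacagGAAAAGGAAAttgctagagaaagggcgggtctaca
Ifit1, chr19:34640769-34640828, plus strand: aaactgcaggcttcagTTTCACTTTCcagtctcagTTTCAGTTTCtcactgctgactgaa
Ifit3, chr19:34583365-34583424, plus strand: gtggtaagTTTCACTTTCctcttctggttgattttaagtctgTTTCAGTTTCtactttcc
Ifit3b, chr19:34607761-34607820, plus strand: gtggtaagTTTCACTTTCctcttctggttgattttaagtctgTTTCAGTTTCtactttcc
Rsad2, chr12:26456538-26456597, minus strand: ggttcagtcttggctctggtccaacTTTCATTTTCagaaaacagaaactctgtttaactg
Trim30a, chr7:104465195-104465254, minus strand: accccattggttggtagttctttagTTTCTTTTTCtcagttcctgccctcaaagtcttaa
In Isg15, Oas1a, Bst2 and Trim21 the matches overlap and form 1 run, of 3 matches in Isg15 and 2 in the others. In Ifit1, Ifit3 and Ifit3b, 2 matches stand apart, and the stretches of Ifit3 and Ifit3b are the same in all 60 bases. The run of Trim21 lies after the start site, at positions 14 to 29, that of Isg15 before it, at -78 to -57, and that of Bst2 at -130 to -115.

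**Figure D1:**
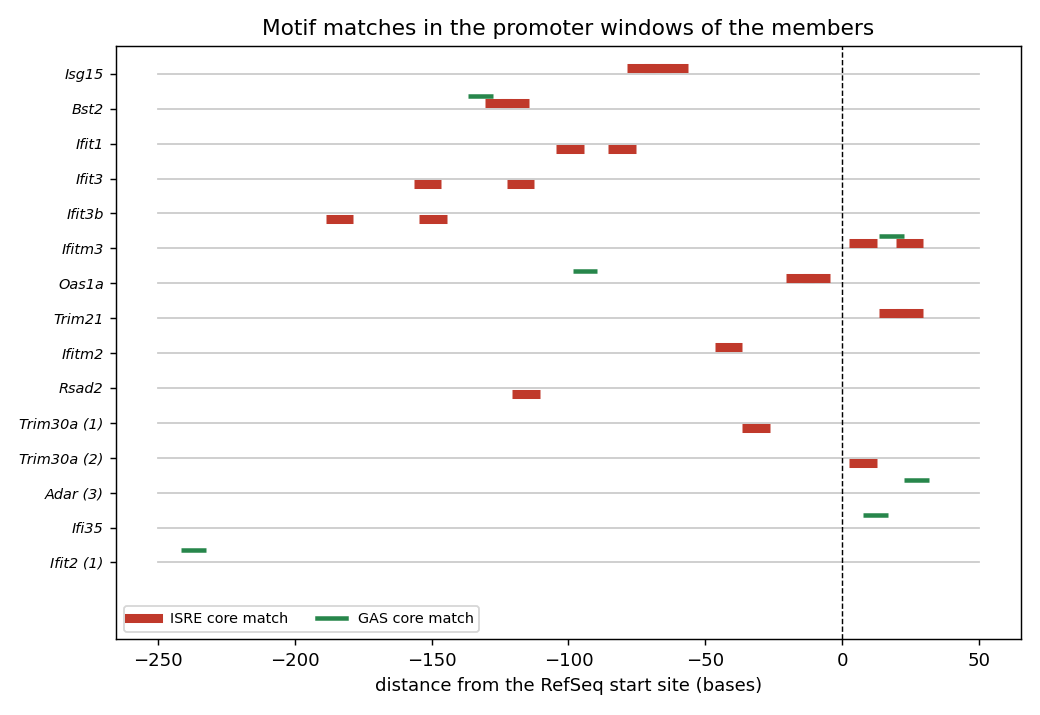
Matches of the ISRE core (thick bars) and the GAS core (thin bars, drawn above) by distance from the RefSeq start site in bases, for each promoter window of a member that held a match; a number in brackets tells windows of 1 gene apart, and ISRE bars below the line are matches on the other strand. Matches lie between -241 and 31, and overlapping ISRE matches appear as 1 longer bar.

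The effector genes as a list lay higher in the CrAT libraries, but no member passed the test. The list was chosen with earlier results of these data known, so its contrasts with all genes are descriptive only. Log2 fold changes, CrAT over MCS, were above 0 for 30 of 33 members, with a median of 0.52, where 50.6% of all 19638 genes tested were above 0 and their median was 0.0075. The summed level of all 35 genes was 1925 CPM in CrAT replicate 1, 1991 in CrAT replicate 2, 1366 in MCS replicate 1 and 1401 in MCS replicate 2. The CrAT libraries both exceeded the 2 MCS libraries for 23 of 33 members, against 15.0% of all genes, and lay below both for Cmpk2 and Ifi35, against 16.6%. By edgeR's quasi-likelihood test with Benjamini-Hochberg adjustment over all genes, 0 of 33 members had an adjusted p under 0.05, and the same held for all genes (0%). At an unadjusted p under 0.05 there were 6 members, all higher in CrAT, against 1.28% of all genes for that direction, and 0 lower, against 2.87%. DESeq2 called 0 members after adjustment, where its smallest adjusted p for a member was 0.171, against 0.291% of all genes, and 8 at an unadjusted p under 0.05, all higher, against 1.48%.

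The members differed widely among themselves. The 6 members with an unadjusted p under 0.05 were Trim21, Bst2, Parp12, Oasl2, Rtp4 and Mx2, while Xaf1, Helz2 and Lgals3bp had log2 fold changes of 0.05 to 0.16 and overlapping groups. Of the 33 members 9 had a log2 fold change above 1, against 3.87% of all genes, and 16 lay within 0.5 of 0. The 2 CrAT libraries differed by over 2-fold in 4 members, Oas1a, Uba7, Mx1 and Mx2, and the 2 MCS libraries in 6, Oas1a, Oas2, Herc6, Mx2, Ifi44 and Samd9l.

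**Figure D2:**
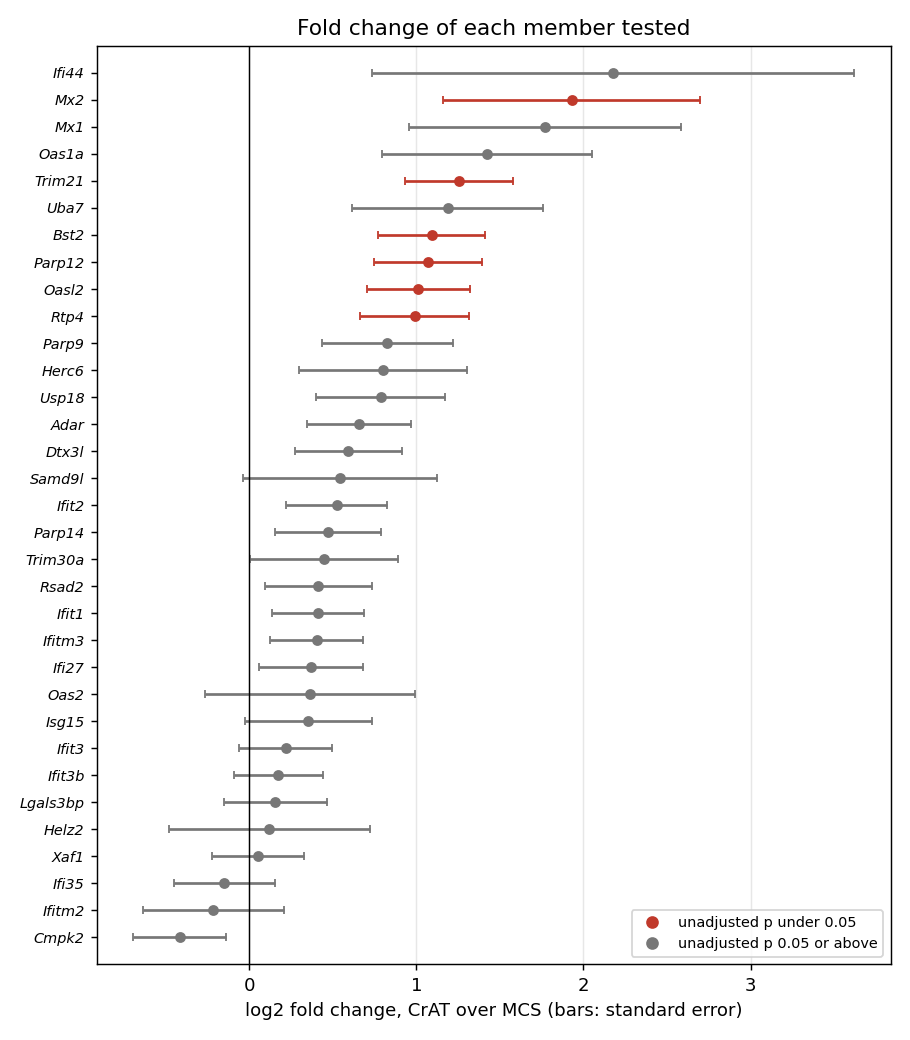
Log2 fold change, CrAT over MCS, of the 33 members tested, in order, with the standard error as bars and the 6 members with an unadjusted p under 0.05 in red. The values run from -0.41 for Cmpk2 to 2.18 for Ifi44, of which 1 MCS library had 0 counts, and the bars of Ifi44, Mx1 and Mx2 are the widest.

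**Figure D3:**
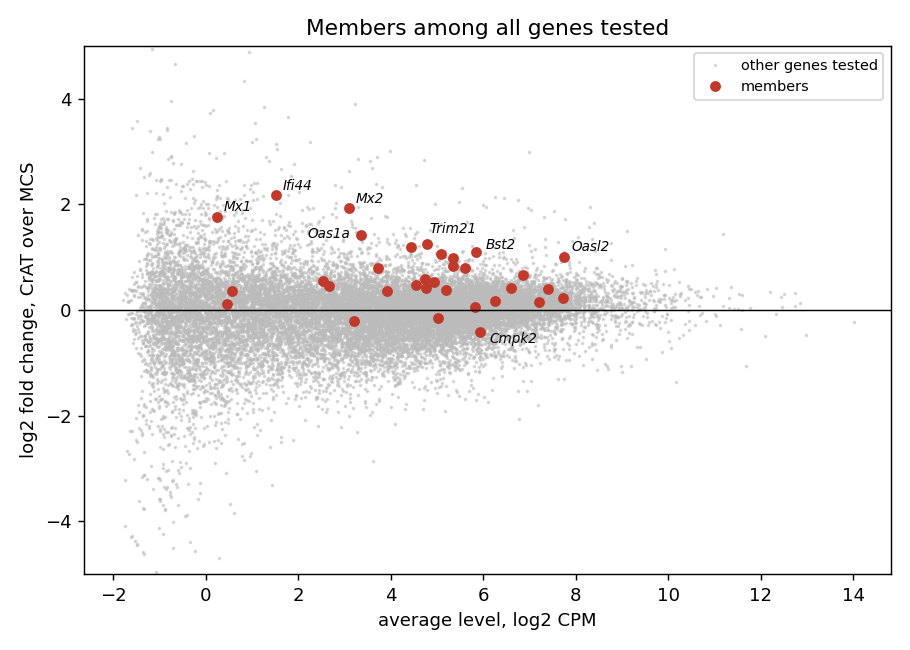
Log2 fold change, CrAT over MCS, against the average level in log2 CPM for the members (red) and the other genes tested (grey), of which 41 lie beyond the vertical limits. Cmpk2, Ifitm2 and Ifi35 are the only members below the line at 0, and 8 members are named.

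Of the nuclear and cytosolic TRIM and SP100 factors, Trim21 differed with the smallest p of all members. It encodes a ubiquitin ligase that binds the constant part of antibodies and so marks antibody-coated virus inside the cell. Its level was 38.6 CPM in CrAT replicate 1, 38.9 in CrAT replicate 2, 18.2 in MCS replicate 1 and 14.2 in MCS replicate 2. The CrAT libraries were almost alike, and the difference of the means, 38.8 ± 0.243 against 16.2 ± 2.82 CPM (SD, n = 2 each), was 2.39-fold. The log2 fold change was 1.26 (SE 0.32), with an unadjusted p of 0.00758 and an adjusted p of 1 by edgeR, and an adjusted p of 0.171 by DESeq2. The count table places Trim21 (ENSMUSG00000030966) at 102207128 to 102214693 of chromosome 7, minus strand, in coordinates that carry no build name and differ from GRCm38. Its promoter is shown with that of Isg15, a gene with a longer ISRE run and overlapping groups, each from 250 bases before to 30 bases after the start site, with ISRE core matches in capitals.
Trim21, chr7:102565453-102565732, minus strand: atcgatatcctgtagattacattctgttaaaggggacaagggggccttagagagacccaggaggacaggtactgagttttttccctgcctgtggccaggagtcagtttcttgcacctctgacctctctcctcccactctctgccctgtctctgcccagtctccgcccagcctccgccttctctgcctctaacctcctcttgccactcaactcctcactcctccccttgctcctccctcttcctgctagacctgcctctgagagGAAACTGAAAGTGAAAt
Isg15, chr4:156200789-156201068, minus strand: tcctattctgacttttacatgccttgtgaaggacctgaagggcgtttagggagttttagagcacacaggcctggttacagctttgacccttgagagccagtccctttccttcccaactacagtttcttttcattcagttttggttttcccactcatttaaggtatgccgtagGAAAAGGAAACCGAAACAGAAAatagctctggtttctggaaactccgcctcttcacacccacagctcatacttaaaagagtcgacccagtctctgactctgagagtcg
The related Trim30a, which restrains inflammatory signalling, was at 6.49 and 7.96 CPM with CrAT and 6.39 and 4.20 CPM with MCS. Its groups touched within 0.1 CPM. Sp100, a component of nuclear bodies that bind viral DNA, had 0 and 19 counts in CrAT and 0 and 1 in MCS, too few to test.

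Among membrane factors, Bst2 was higher. Bst2 encodes tetherin, which holds budding virus on the cell surface. It was at 80.5 and 76.0 CPM with CrAT and at 44.2 and 29.2 CPM with MCS, in the order of replicates 1 and 2 that is kept below. The groups stood far apart, with a log2 fold change of 1.09 (SE 0.32), or 2.13-fold (edgeR, unadjusted p = 0.0136, adjusted p = 1). The interferon-induced transmembrane proteins block virus at the endosome. Ifitm3 was the most abundant member per exon length, at 212 to 300 FPKM (the authors' count scaled by exon length and depth), and was at 209.8 and 177.1 CPM with CrAT and 151.5 and 141.1 CPM with MCS. The groups did not overlap, and the log2 fold change of 0.40 (SE 0.28) did not pass (edgeR, adjusted p = 1, unadjusted p = 0.194). The count table has Bst2 (ENSMUSG00000046718) at 71986899 to 71990100 of chromosome 8, minus strand. Ifitm2 was 1 of the 3 members with a negative value, at -0.21 (SE 0.42, edgeR, adjusted p = 1), with 7.33 and 9.66 CPM with CrAT and 8.003 and 11.7 CPM with MCS, and its groups overlapped. Ifitm2 shared 48.5% of its 50-base windows with transcripts of other genes, among them 36.1% with the gene model Gm45717, so its own level is uncertain.

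Poly-ADP-ribose polymerases of this list transfer ADP-ribose to proteins, and Parp12 and Parp14 restrict several RNA viruses. Parp12 was at 47.9 and 43.5 CPM with CrAT and 25.3 and 18.3 CPM with MCS, with a log2 fold change of 1.07 (SE 0.32), or 2.10-fold (edgeR, unadjusted p = 0.0154, adjusted p = 1). It lies at 39063344 to 39095283 of chromosome 6, minus strand, in the count table. Parp9 was at 60.03 and 44.4 CPM against 37.8 and 21.0 CPM, with a log2 fold change of 0.83 (SE 0.39, edgeR, unadjusted p = 0.0779, adjusted p = 1). Without MCS replicate 2 that value was 0.47. The ubiquitin ligase Dtx3l, which works as a dimer with PARP9, was at 31.2 and 33.1 CPM against 23.4 and 19.2 CPM. The 2 genes lie on opposite strands of chromosome 16 and share 458 exon bases, so part of their reads cannot be told apart in these unstranded libraries. Parp14 was at 27.1 and 27.04 CPM against 20.5 and 18.5 CPM. In all 4 genes of this group the CrAT values exceeded the MCS values without overlap, against 15.0% of all genes. Only Parp12 had an unadjusted p under 0.05, against 1.28% of all genes for that direction.

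The oligoadenylate synthetase family makes the messenger that switches on the nuclease RNase L when double-stranded RNA is present. Oasl2 was the most abundant of its 3 members per exon length, at a mean of 33.3 FPKM, and had 262.1 and 309.8 CPM with CrAT and 163.3 and 120.4 CPM with MCS, 286 ± 33.7 against 141.8 ± 30.4 CPM (SD, n = 2 each). The groups stood clear of each other, with a log2 fold change of 1.01 (SE 0.31), or 2.02-fold (edgeR, unadjusted p = 0.0157, adjusted p = 1). The count table places it at 115034997 to 115050295 of chromosome 5, plus strand. Oas1a was at 8.55 and 21.2 CPM against 3.38 and 7.68 CPM, a log2 fold change of 1.42 (SE 0.63, edgeR, unadjusted p = 0.0623, adjusted p = 1). Replicate 2 was above replicate 1 in both groups, and without CrAT replicate 2 the value was 0.65. Oas1a shared 57.6% of its 50-base windows with its neighbour Oas1g, so reads of these copies may have been split or pooled. Oas2 was low, at 1.68 and 1.47 CPM against 1.65 and 0.797 CPM, and its groups overlapped.

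Proteins of the ISG15 system attach ISG15 to newly made proteins, viral ones among them, and remove it. Isg15 itself, often taken as a readout of interferon, was at 14.9 and 19.0 CPM with CrAT and 15.3 and 11.2 CPM with MCS. MCS replicate 1 lay above CrAT replicate 1, and the log2 fold change of 0.35 (SE 0.38) was smaller than its error (edgeR, unadjusted p = 0.385, adjusted p = 1). Usp18, the protease that removes ISG15 and also blocks the type I receptor, was at 60.5 and 61.8 CPM against 24.2 and 46.7 CPM, a log2 fold change of 0.79 (SE 0.39, edgeR, unadjusted p = 0.0855, adjusted p = 1). The gap rested on MCS replicate 1, without which it was 0.39. Uba7, which activates ISG15, was at 15.2 and 44.5 CPM against 15.8 and 10.5 CPM, a log2 fold change of 1.19 (SE 0.57, edgeR, unadjusted p = 0.0805, adjusted p = 1). Only CrAT replicate 2 was high, and without it the value was 0.24. Herc6, the ligase that attaches ISG15 in mice, was at 18.9 and 14.3 CPM against 13.3 and 5.76 CPM, with both CrAT libraries above both MCS libraries by a small margin.

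The 4 Ifit genes encode proteins of a family that binds viral RNA, IFIT1 by a cap that lacks methylation. They lie near each other on chromosome 19, with gaps of 7.1, 19.2 and 27.5 kilobases from 1 member to the next. Ifit3 was the second most abundant member per exon length, at 105 to 129 FPKM. Its levels were 230.1 and 227.3 CPM with CrAT and 179.8 and 213.1 CPM with MCS. Ifit1 was at 115.4 and 105.6 CPM against 75.5 and 90.4 CPM. Ifit3b was at 82.8 and 77.9 CPM against 67.8 and 74.5 CPM, and Ifit2 at 37.9 and 34.2 CPM against 24.5 and 25.6 CPM. All 4 were higher in both CrAT libraries than in either MCS library, against 15.0% of all genes. Their log2 fold changes were 0.17 to 0.52, and none had an unadjusted p under 0.05. Ifit3 shared 51.2% of its 50-base windows with Ifit3b, so their split of reads is uncertain.

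Rsad2 and Cmpk2 are neighbours on chromosome 12, 12.8 kilobases apart on opposite strands, and their groups parted in opposite directions. Rsad2 encodes viperin, which makes a nucleotide that stops viral RNA polymerases, and CMPK2, a mitochondrial nucleotide kinase, supplies its substrate. Rsad2 was at 32.0 and 29.5 CPM with CrAT and 20.4 and 25.7 CPM with MCS, a log2 fold change of 0.41 (SE 0.32). Cmpk2 was at 47.7 and 57.2 CPM with CrAT and 68.6 and 71.2 CPM with MCS, a log2 fold change of -0.41 (SE 0.28, edgeR, unadjusted p = 0.185, adjusted p = 1). Neither difference passed the test. No library broke the order, but 15.0% of all genes had the order of Rsad2 and 16.6% that of Cmpk2. The ratio of Rsad2 to Cmpk2 in FPKM was 0.645 and 0.494 in CrAT and 0.286 and 0.346 in MCS. Neither gene shared a 50-base window with another gene. Adar, which edits adenosines in double-stranded RNA and so keeps a cell's own RNA from being sensed, was at 115.8 and 168.6 CPM against 83.1 and 97.2 CPM, a log2 fold change of 0.66 (SE 0.31, edgeR, unadjusted p = 0.0771, adjusted p = 1). Both CrAT libraries were above both MCS libraries, and without CrAT replicate 2 the value was 0.38. Adar shares 1365 exon bases with Chrnb2 on the opposite strand, whose counts were 953 and 1465 in CrAT and 673 and 1261 in MCS.

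The Mx genes encode GTPases that trap viral nucleoproteins, and many laboratory strains carry defective alleles of them. Mx2 was at 20.1 and 6.68 CPM with CrAT and 1.65 and 5.36 CPM with MCS, a log2 fold change of 1.93 (SE 0.77, edgeR, unadjusted p = 0.0452, adjusted p = 1). CrAT replicate 1 stood far above the rest, and without it the value was 0.93. It was 3.02 without MCS replicate 2. Mx1 had only 18 and 70 counts against 12 and 14, or 0.754 and 2.64 CPM against 0.483 and 0.507 CPM. Its log2 fold change of 1.77 (SE 0.81, edgeR, unadjusted p = 0.0707, adjusted p = 1) rested on CrAT replicate 2, without which it was 0.62. The high library thus differed between the 2 Mx genes.

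Of the other interferon-induced genes Rtp4 stood out. RTP4, a chaperone of receptors that also binds viral RNA, had transcript levels of 62.0 and 46.5 CPM with CrAT and 30.9 and 23.7 CPM with MCS, with a log2 fold change of 0.99 (SE 0.33), or 1.99-fold (edgeR, unadjusted p = 0.0217, adjusted p = 1). The groups did not overlap, and the table gives Rtp4 the span 23339041 to 23432972 of chromosome 16, plus strand. Ifi27 was at 46.5 and 35.9 CPM against 29.6 and 34.1 CPM, also without overlap. Ifi44 was at 3.85 and 5.21 CPM against 2.01 and 0 CPM, where the 0 allows up to 3 counts, or 0.111 CPM, and its SE of 1.44 was the largest of the members. Its log2 fold change of 2.18 was 1.17 without MCS replicate 2, the library at 0, and without MCS replicate 1 the fitted value of 9.88 set CrAT against that library alone and is no measure of size.

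In the remaining tested genes of that group no unadjusted p was under 0.05, and all but Ifi35 overlapped between the groups. Xaf1, a factor linked to cell death, was at 54.1 and 60.01 CPM against 51.9 and 58.1 CPM. Lgals3bp, a secreted glycoprotein, was at 142.7 and 168.6 CPM against 116.0 and 163.0 CPM. In both genes replicate 2 lay above replicate 1 in each group. Ifi35 was at 33.2 and 28.3 CPM against 33.4 and 34.7 CPM, a log2 fold change of -0.15 (SE 0.30, edgeR, adjusted p = 1), and its groups were parted by less than 0.3 CPM. Samd9l, which slows translation, was at 8.34 and 5.13 CPM against 6.60 and 2.64 CPM, a log2 fold change of 0.54 (SE 0.58). Helz2, a helicase-like coactivator, was at 1.09 and 1.62 CPM against 1.41 and 1.09 CPM. Epsti1 had 4 counts in MCS replicate 1 and 0 in the other libraries.

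**Figure D4:**
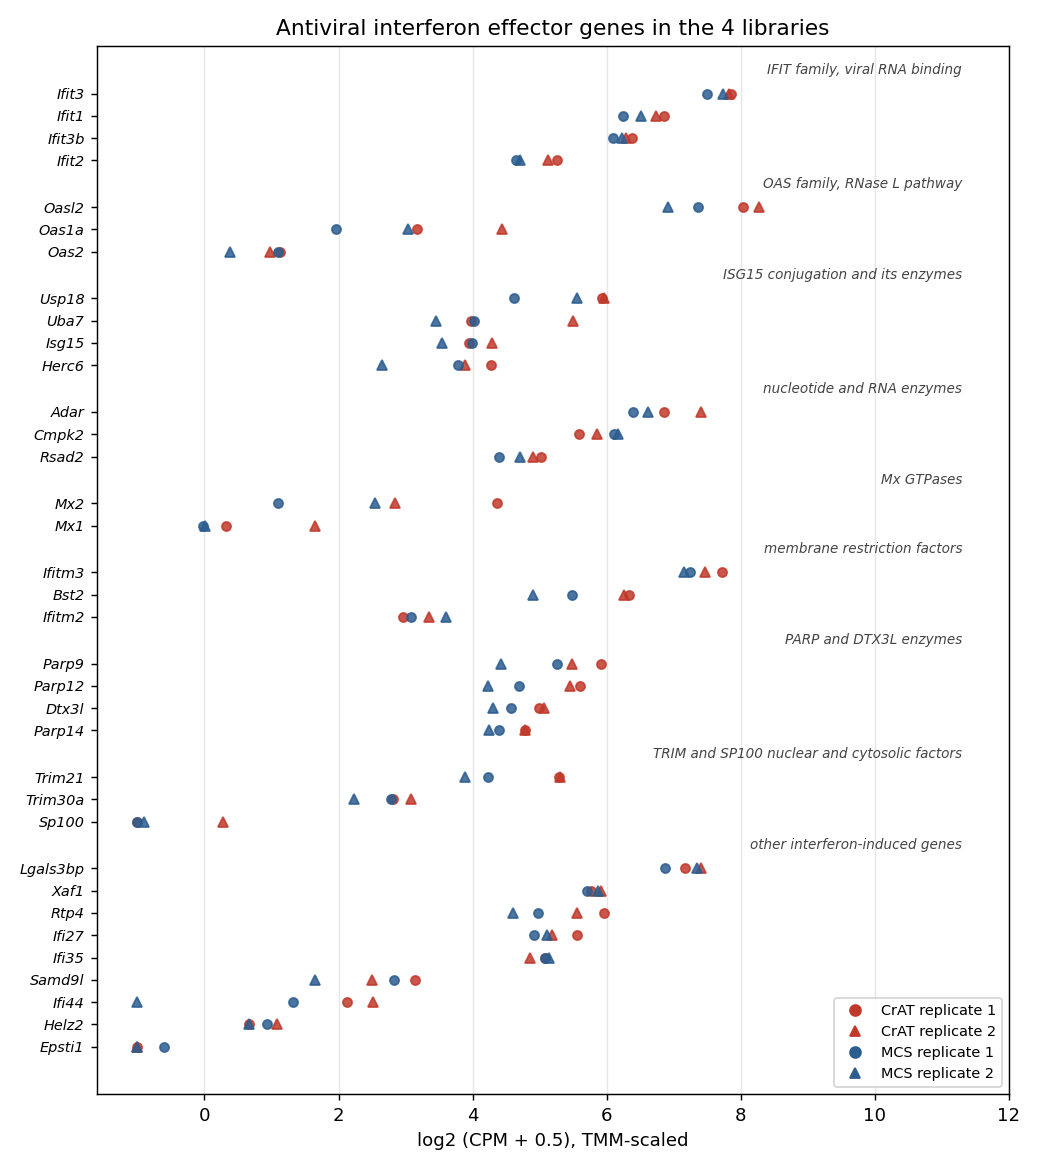
Level of each of the 35 genes in each library, as log2 of TMM-scaled CPM plus 0.5, grouped by role, with CrAT in red, MCS in blue, circles for replicate 1 and triangles for replicate 2. Both red points lie right of both blue points for 23 genes, and Cmpk2 and Ifi35 show the opposite order.

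The 5 genes with the smallest p differed in how much sequence they share with other genes. Trim21, Bst2, Parp12 and Oasl2 shared 0.216%, 0%, 0% and 0.138% of their 50-base windows with transcripts of another gene, and Rtp4 shared 11.6% with the gene model Gm45338, which had 1 count in all. When each library was left out in turn, the log2 fold change of these 5 genes ranged from 0.77 to 1.45. The genes were picked by their p in the same 4 libraries, which favours a narrow range, so the range is no independent support. Over the list, 15 of 35 genes shared under 1% of their windows and 4 over 40%. Mean levels per exon length ran from 0.0176 FPKM for Epsti1 to 249.6 FPKM for Ifitm3, and 16 genes were above 10 FPKM on average, 13 between 1 and 10, and 6 below 1.

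Values were also set beside the promoter letters. The 11 genes with a match had a median log2 fold change of 0.41, from -0.21 to 1.42. In 9 of them the 2 CrAT libraries both exceeded those of MCS, an order that 15.0% of all genes had. The 14 tested genes with a window but no match had a median of 0.57, from -0.41 to 2.18, with 7 in that order. The 2 sets overlapped over most of their range, and the difference was not tested.

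Upstream of the effectors, Stat2 and Irf9 were higher in CrAT at an unadjusted p under 0.05, and no receptor was. Stat2 was at 116.4 and 140.6 CPM with CrAT against 78.1 and 53.9 CPM, a log2 fold change of 0.96 (SE 0.32, edgeR, unadjusted p = 0.0212, adjusted p = 1). Irf9 was at 240.7 and 220.0 CPM against 83.6 and 96.95 CPM, a log2 fold change of 1.35 (SE 0.28, edgeR, unadjusted p = 0.00256, adjusted p = 1). The groups of neither gene overlapped. The kinase Jak1 was at 269.9 and 238.1 CPM against 204.5 and 175.2 CPM, a log2 fold change of 0.42, and Jak2 had a log2 fold change of 0.09. Of 6 receptor genes 5 had a negative log2 fold change, with a median of -0.19. A group order without overlap was seen in 0 of them, against 15.0% of all genes with CrAT above and 16.6% below. Ifnar1, a chain of the type I receptor, was at 44.8 and 47.7 CPM against 54.2 and 40.8 CPM. Of 5 feedback inhibitors tested 2 were above 0 and 3 below, and Socs1, which blocks JAK kinases, was at 2.39 and 4.68 CPM against 3.34 and 3.01 CPM. Of 13 interferon genes 12, Ifnb1 and Ifng among them, had 0 counts in all 4 libraries, which allows up to 0.123 CPM in the shallowest, and Ifnz had at most 3 counts.

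Markers of other cells were summed in the same libraries. The 10 Mueller glia markers were all lower in CrAT, with a median log2 fold change of -0.95, 4 at an unadjusted p under 0.05 against 2.87% of all genes, and sums of 8237 and 6393 CPM with CrAT and 13440 and 11960 CPM with MCS. Their part in the result was not tested. The 15 markers of microglia and macrophages summed to 38.1 and 34.4 CPM with CrAT and 38.97 and 39.95 CPM with MCS, so neither CrAT library exceeded an MCS library. The 8 endothelial markers summed to 471.6 and 369.9 CPM against 860 and 479.6 CPM, with Cdh5 at 0. Kdr, Flt1 and Esam held nearly all of that sum, and Kdr overlapped, at 346.1 and 282.6 against 593.5 and 205.2 CPM. Pecam1 was low and went the other way, at 1.55 and 0.943 against 0.402 and 0.543 CPM. Of 6 endothelial markers tested 2 had a log2 fold change above 0 and 4 below. The 6 pericyte markers summed to 39.04 and 31.98 CPM against 66.6 and 39.2 CPM, mostly Pdgfrb, while Rgs5 had a log2 fold change of 0.25. Both sums were lower in both CrAT libraries. The sums of astrocyte, amacrine, bipolar and cone markers overlapped between the groups. Of 11 markers of T and NK cells 7, Cd3e, Cd3d and Cd3g among them, were at 0 in all libraries, and the leukocyte gene Ptprc had 1 to 8 counts. Other markers of that list had some counts. Cd8a had 41 and 31 with CrAT and 35 and 9 with MCS, Trac 16 and 10 against 17 and 19, and Cd4 25 and 0 against 7 and 7. Markers of dendritic and B cells summed to 8.21 and 15.4 CPM with CrAT and 11.5 and 11.7 CPM with MCS, with Ms4a1 at 0.

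**Figure D5:**
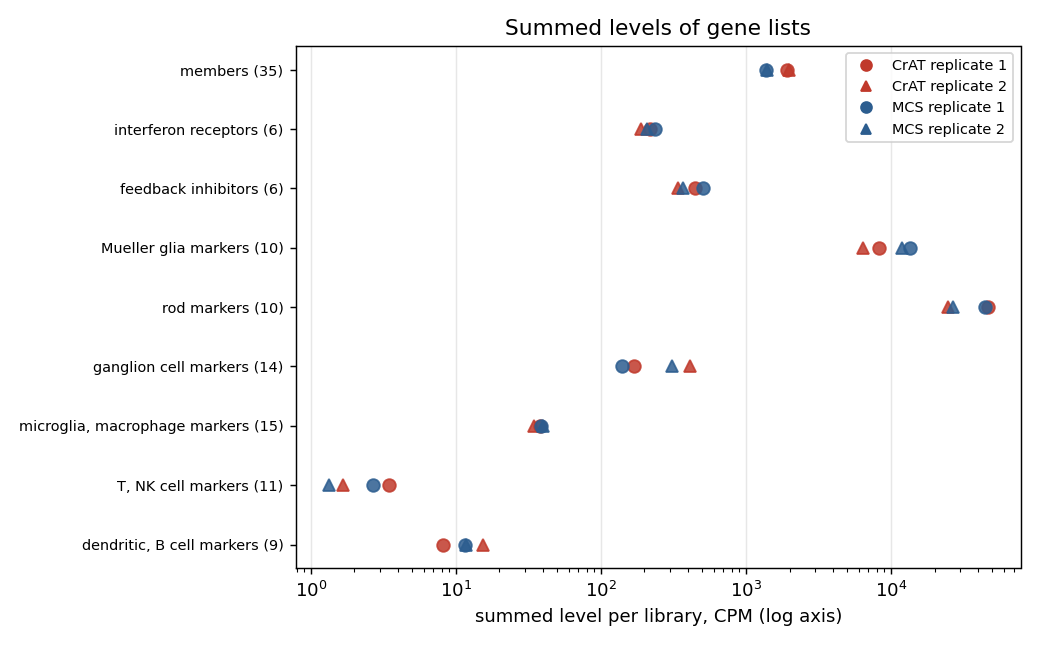
Summed level per library in CPM, on a log axis, of the 35 effector genes, fixed lists of interferon receptors, feedback inhibitors and markers of retinal and immune cells, with CrAT in red, MCS in blue, circles for replicate 1 and triangles for replicate 2. The effectors, at 1925 and 1991 against 1366 and 1401 CPM, lie higher in both CrAT libraries, the Mueller glia markers and, by a small margin, the microglia and macrophage markers lower, and the other lists plotted overlap between the groups.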

How the data were processed

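Total RNA of sorted cells was extracted and copied by SMART-seq for low input, a chemistry that does not mark the strand, per the labels' protocols. The submitters' processing notes list STAR 2.7.2b, with GRCm38.p6 and mm10 as builds. How reads were counted is not given in the sources used here. For each gene the authors deposited estimated counts, rounded to whole numbers, and FPKM. Recomputed from FPKM, 43.6% to 44.9% of the estimates above 0 lay over 0.02 from a whole number. Only 1402 of 51898 identifiers found in a GRCm38 annotation kept its start and end there, and no coordinates were converted. Each of the 2 tables held 2 columns of other samples, 4 in all, which were not used.

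Groups and replicate numbers came from the sample titles. The deposited counts were filtered with edgeR's filterByExpr, which left 19638 genes, and scaled by TMM (factors 0.970 to 1.02). The test was the two-sided quasi-likelihood F test of edgeR 4.0.16 in R 4.3.3, with robust estimation and the group as its sole term, on 2 residual degrees of freedom, with Benjamini-Hochberg adjustment over all genes. The CPM values are TMM-scaled. Exact permutation tests were not run, since 2 libraries against 2 are too few. DESeq2 1.42.0, other scalings and filters, a replicate block and leaving out each library were alternatives. In simulated counts modelled on this comparison, 19189 genes were tested and 50 were changed by each size. Of these, edgeR called 2% at 2-fold, 40% at 4-fold, 82% at 16-fold and 100% at 64-fold. It also called 7 unchanged genes. The simulated spread of a gene was set by its level alone, with no replicate effect, so these rates may not hold for the real libraries. Promoter sequences are RefSeq's, and shared 50-base windows were counted in GENCODE M21 transcripts. Every member is described, with fold change and error for the 12 with the smallest p and for each below 0. Values of some genes in the lists are not reported here. Members and lists were chosen with earlier results of these data known. Floors cover counting error only, as amplified reads are not independent molecules.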

Additional observations from a re-analysis of the deposited data

How the results depend on the processing

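No member passed the adjusted threshold under any of the 10 alternatives. Of 329 member values recomputed, 322 kept their direction and 7 reversed, all when 1 library was left out and all in 5 members that lay near 0. Most of these values could hardly reverse. The other alternatives refit the same 4 libraries, and with a library left out only the 8 members with overlapping groups were free to change direction. The ranges with each library left out were -0.024 to 0.14 for Xaf1, -0.17 to 0.38 for Helz2, -0.065 to 0.43 for Lgals3bp, -0.064 to 0.98 for Oas2 and -0.46 to 0.09 for Ifitm2. The median of the members was 0.47 with library totals only and 0.53 with DESeq2, and it ranged from 0.47 to 0.68 with each library left out, the highest without MCS replicate 1. The count at an unadjusted p under 0.05 was 6 and became 11 with no filter, where the cause was not tested. The share over all genes with no filter was not computed, so that count cannot be read as a result about the members. Over all genes DESeq2 called 55 genes and edgeR with no filter 2, against 0.

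The titles give both groups the numbers 1 and 2, and nothing says that a number marks a shared animal or day. Across genes the difference of replicate 1 from 2 correlated at 0.47 between the groups. With the number as a replicate block 12 of 33 members had an unadjusted p under 0.05, all higher, against 3.84% of all genes, and 0 passed after adjustment. In the simulated counts, with 2 libraries a group, differences near 2-fold were mostly not called by the adjusted test.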
